A study of Mus musculus with 21 samples.

Results

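Retinoic acid is a vitamin A derivative that acts as a signal in the trunk of the vertebrate embryo. Retinol is oxidised to retinal, chiefly by Rdh10 in the embryo, and retinal is oxidised to retinoic acid by retinal dehydrogenases, of which Aldh1a2 is the main one in trunk mesoderm. Enzymes of the Cyp26 family break retinoic acid down and keep its level low in the tail bud, Crabp proteins bind it in the cytoplasm, and nuclear receptors (Rara, Rarb and Rarg) bind it on DNA together with RXR partners. Described here are the 10 genes of this pathway that were looked up by symbol in the expression table: Rdh10 and Aldh1a2 (synthesis), Cyp26a1, Cyp26b1 and Cyp26c1 (breakdown), Crabp1 and Crabp2 (binding proteins), and Rara, Rarb and Rarg (receptors). All 10 were found among the 23983 genes of the table, and their values were set beside the T and Foxa2 binding peaks around them.

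The study compared the cells that build the mouse notochord, the midline rod that expresses T (brachyury), Foxa2 and Noto, with mesoderm progenitors of the same caudal end. The 6 embryonic RNA-seq libraries came from pooled embryos made, by the labels, through tetraploid complementation (the study's text names diploid morula aggregation) with F1G4 (C57BL/6N x SV129) mouse embryonic stem cells, which carried the BAC reporters T::H2B-Venus, Noto::H2B-mCherry and Foxa2::H2B-mTurquoise. Notochord progenitors (NotoP, sorted as Noto+/T+/Foxa2+) and mesoderm progenitors (MP, T+/Noto-/Foxa2-) were taken from caudal ends, and trunk notochord (T+/Noto+/Foxa2+) from the trunk, at E8.5 (Theiler stage 12) and E9.5 (Theiler stage 16). For trunk notochord the study lists a wider range of somite numbers, from fewer somites at E8.5 and up to more at E9.5 than for NotoP and MP. It also lists a high Foxa2 gate for E9.5 NotoP and both trunk samples, but only Foxa2+ for E8.5 NotoP. The part of these differences in the ratios was not tested. The 3 cultured libraries came from 1 stem cell line with TRE::Foxa2-IRES-EGFP at Rosa26 and the BACs T::H2B-mCherry-T2A-irTA and Noto::H2B-mTurquoise, grown in N2B27 medium with 10 ng/ml bFGF and CHIR99021. NMPdiff cells were sorted on day 3 as T+/Noto-. MPdiff cells were sorted on day 4 as T+/Noto-. NotoPdiff cells were sorted on day 4 as Noto+/T+ after 1 ng/ml doxycycline had switched on the Foxa2 transgene from day 2, which in this line is expressed only where T drives the transactivator. T and Foxa2 were mapped by ChIP-seq in unsorted day 4 cultures enriched for NotoPdiff cells, with 1 library per factor.

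Each condition had 1 library, so a ratio of 2 libraries carries no error or p-value and describes those libraries only. The 6 embryonic libraries also allowed a fit of tissue plus stage, given after the ratios. Levels are FPKM, fragments per kilobase of transcript scaled to library size, as the authors deposited them. Ratios are log2 ratios of FPKM + 1, and a gene was called when the ratio reached 3-fold. The table holds no read counts, so no counting error was attached to a value. Fewer cells and fewer de-duplicated reads are listed by the study for MP at the earlier stage and for both trunk notochord samples than for the other embryonic samples. As a measure of dropout, genes were counted that one library listed at 0 although the other 8 each gave them 5 FPKM or more. There were 59 such genes of 5483 in E8.5 MP, 38 of 5357 in E9.5 trunk notochord and 8 of 5237 in E8.5 trunk notochord, and at most 1 in each of the other 6 libraries. The sorted reporters matched the labels: Noto was listed at 0 in both MP libraries and in MPdiff, and stood at 0.515 FPKM in NMPdiff and between 20.8 and 164 FPKM in the 5 notochord libraries. In bulk samples, fewer cells of a type and less RNA per cell cannot be told apart.

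The retinoic acid receptor binds direct repeats of a 6-base unit, and the best known arrangement has 5 bases between the units (DR5). Because these genes include classical targets of the receptor, the RefSeq promoters (300 bases around each annotated start, most of them before it, GRCm38, the same build as mm10) were searched on both strands for any pairing of the unit AGGTCA, the unit GGGTCA, the unit AGTTCA or the unit GGTTCA with 5 bases between. RefSeq promoter entries were at hand for 8 of the 10 genes. The match was found in 32 of 32851 promoters (0.0974%), or 31 of 27025 genes (0.115%), and among the 8 genes in Rarb and Cyp26a1. The units searched include those of the well known Rarb element, and the Cyp26a1 match is built from the unit AGTTCA of that element. Since the search was made because of classical targets, neither match is an independent observation. Both are printed 5′ to 3′ with 6 bases on each side, and capitals mark the direct repeat.

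Rarb element, chr14:16575507-16575535, minus strand: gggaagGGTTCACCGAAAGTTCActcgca

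Cyp26a1 element, chr19:37697770-37697798, minus strand: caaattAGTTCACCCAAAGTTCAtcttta

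The Rarb repeat lay 53 to 37 bases before the RefSeq start on the transcribed strand, and in GENCODE it falls within the first exon of Rarb transcripts that start further upstream. The Cyp26a1 repeat lay 32 to 16 bases before the start on the strand opposite to transcription. Counted from 1 at the 5′ end of the repeat, the sequences differed at 2 positions, G1A and G9C, with the Rarb base first. A match is a description of letters and says nothing of binding. Among the promoter entries of the pathway lists described below, 0 held a match.

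Synthesis was led by Aldh1a2 in every library except NMPdiff. Its level was 42.9 FPKM in NotoP at E8.5 and 31.3 at E9.5, against 16.05 and 7.88 in MP. Trunk notochord held 35.0 FPKM at E8.5 and 12.6 at E9.5. In culture it was 0.301 FPKM in NMPdiff, 70.3 in NotoPdiff and 364 in MPdiff. Embryonic NotoP thus stood above MP at both stages, whereas in culture the order was the opposite. Expressed as log2 ratios, NotoP exceeded MP by 1.36 at E8.5, below the 3-fold mark, and by 1.86 at E9.5, past it. The ratio of NotoPdiff over MPdiff was -2.36. From NMPdiff, the log2 ratio was 5.78 for NotoPdiff and 8.13 for MPdiff, and Aldh1a2 moved from rank 13600 of all genes in NMPdiff to rank 758 in NotoPdiff and rank 157 in MPdiff. In all 3 embryonic tissues the E9.5 value was below the E8.5 value, with log2 ratios of -0.44 in NotoP, -0.94 in MP and -1.40 in trunk notochord, none of which reached 3-fold. The other retinal dehydrogenases Aldh1a1, Aldh1a3 and Aldh8a1 stayed at or below 0.568 FPKM in all 9 libraries.

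Rdh10 varied less. It measured 8.22 FPKM in NotoP at E8.5, 4.21 in NotoP at E9.5, 2.26 in MP at E8.5, 4.58 in MP at E9.5, and 4.79 and 6.21 in E8.5 and E9.5 trunk notochord. In culture it was 7.70 FPKM in NMPdiff, 6.68 in NotoPdiff and 18.3 in MPdiff, so that MPdiff, the library highest in Aldh1a2, was also highest in Rdh10. No Rdh10 ratio reached 3-fold in the 10 comparisons made here. The NotoP over MP ratio was 1.50 at E8.5, -0.10 at E9.5 and -1.33 in culture.

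**Figure D1:**
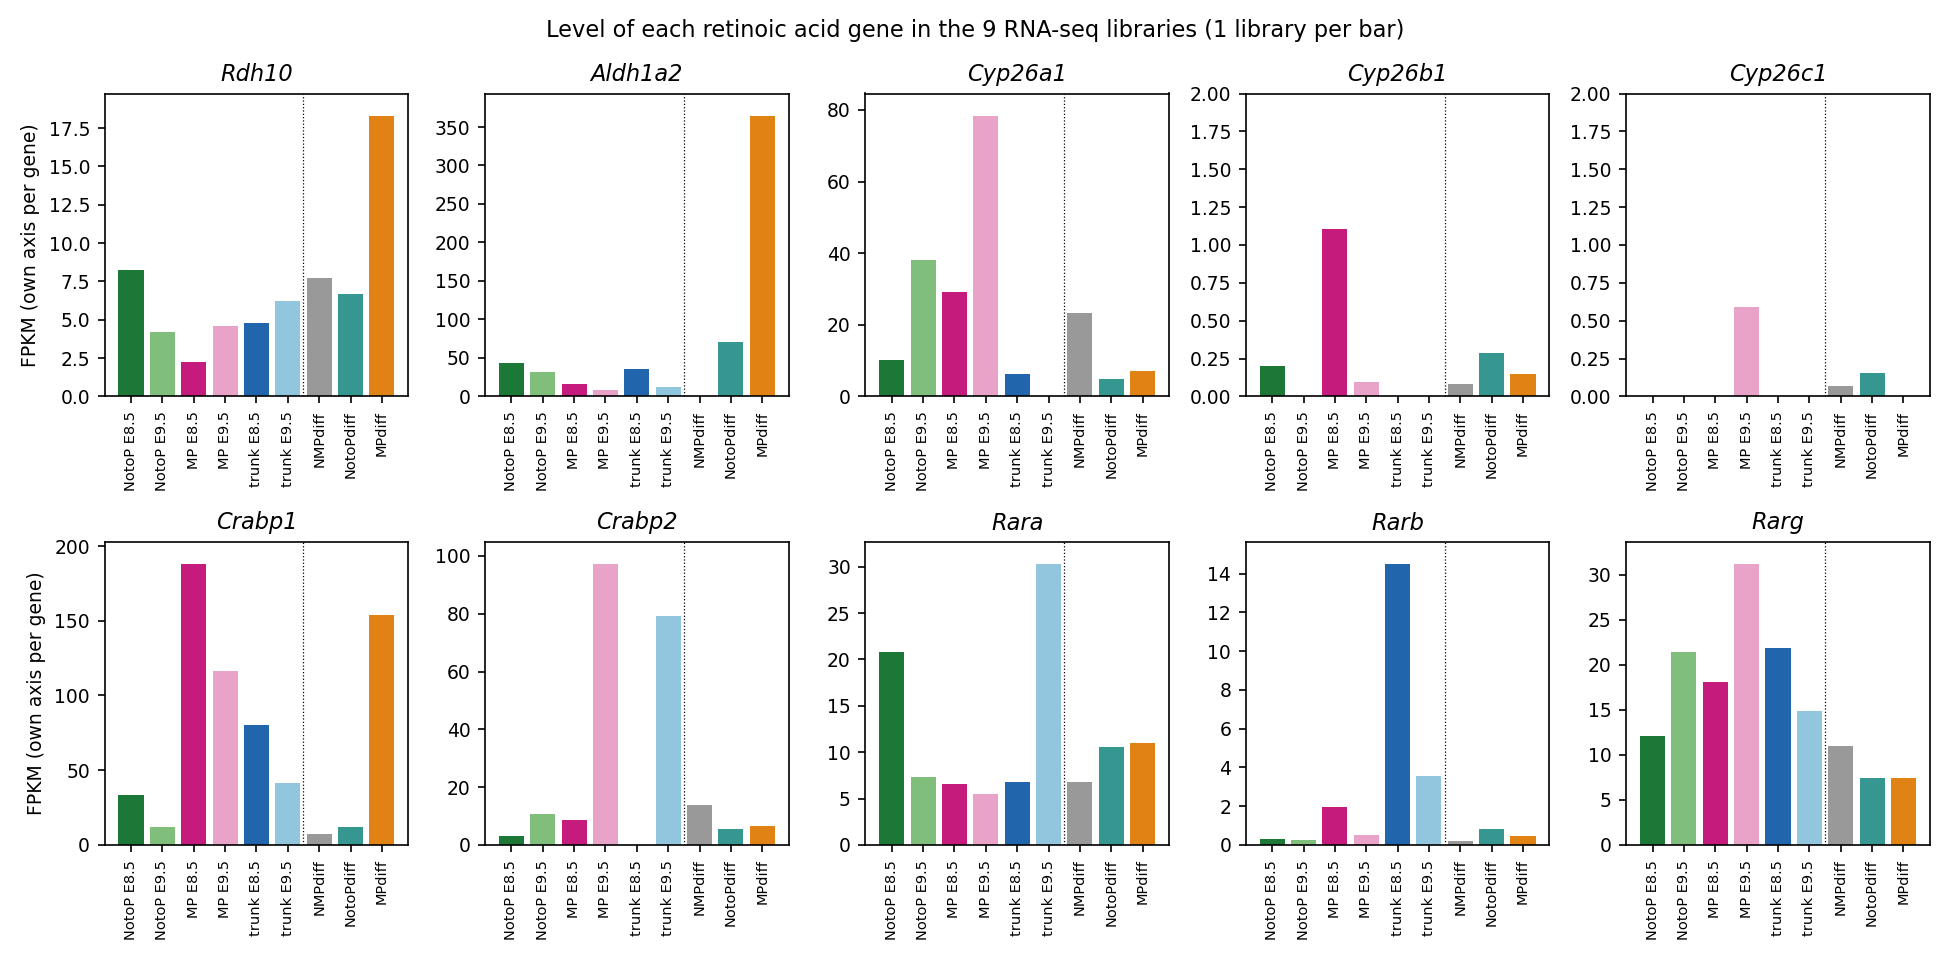
Level of each of the 10 genes in the 9 RNA-seq libraries, in FPKM on an axis of its own per gene, with 1 library per bar and the cultured libraries to the right of the dotted line. Aldh1a2 and Rdh10 peaked in MPdiff (364 and 18.3 FPKM), Cyp26a1 in MP at E9.5 (78.3 FPKM) and Rarb in trunk notochord at E8.5 (14.5 FPKM).

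Breakdown enzymes were represented by Cyp26a1 alone. It measured 10.1 and 38.0 FPKM in NotoP at E8.5 and E9.5, 29.1 and 78.3 in MP at the same stages and 6.17 in E8.5 trunk notochord, and it was listed at 0 in E9.5 trunk notochord. The caudal libraries thus all stood above the trunk libraries, and MP stood above NotoP at both stages, with NotoP over MP ratios of -1.45 and -1.03 that did not reach 3-fold. In NotoP it was higher at E9.5 than at E8.5 by a log2 ratio of 1.82, and in MP by 1.40. Among cultured cells, NMPdiff had 23.3 FPKM, NotoPdiff 4.87 and MPdiff 7.15, and the log2 ratios against NMPdiff were -2.05 for NotoPdiff and -1.57 for MPdiff, the latter just short of 3-fold. Cyp26b1 did not exceed 1.10 FPKM and Cyp26c1 did not exceed 0.587 FPKM in any library. Cyp26b1 was listed at 0 in 3 libraries and Cyp26c1 in 6, and no ratio of theirs is interpreted.

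Setting Aldh1a2 against Cyp26a1 in each library, both being levels per length of transcript, gave the order trunk notochord, NotoP, MP within each stage. Aldh1a2 exceeded Cyp26a1 5.66-fold in trunk notochord at E8.5 and 4.26-fold in NotoP at E8.5, whereas in E9.5 trunk notochord Cyp26a1 was listed at 0 beside 12.6 FPKM of Aldh1a2. In NotoP at E9.5 the levels were close, with Cyp26a1 1.21-fold higher. In MP, Cyp26a1 was 1.82-fold higher at E8.5 and 9.94-fold higher at E9.5. In culture, Cyp26a1 was 77.3-fold above Aldh1a2 in NMPdiff, and Aldh1a2 was 14.5-fold above Cyp26a1 in NotoPdiff and 50.9-fold in MPdiff. Both day 4 libraries were therefore on the synthesis side, MPdiff included, while both embryonic MP libraries were on the breakdown side. These are ratios of transcript levels without a test, and they do not measure retinoic acid.

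**Figure D2:**
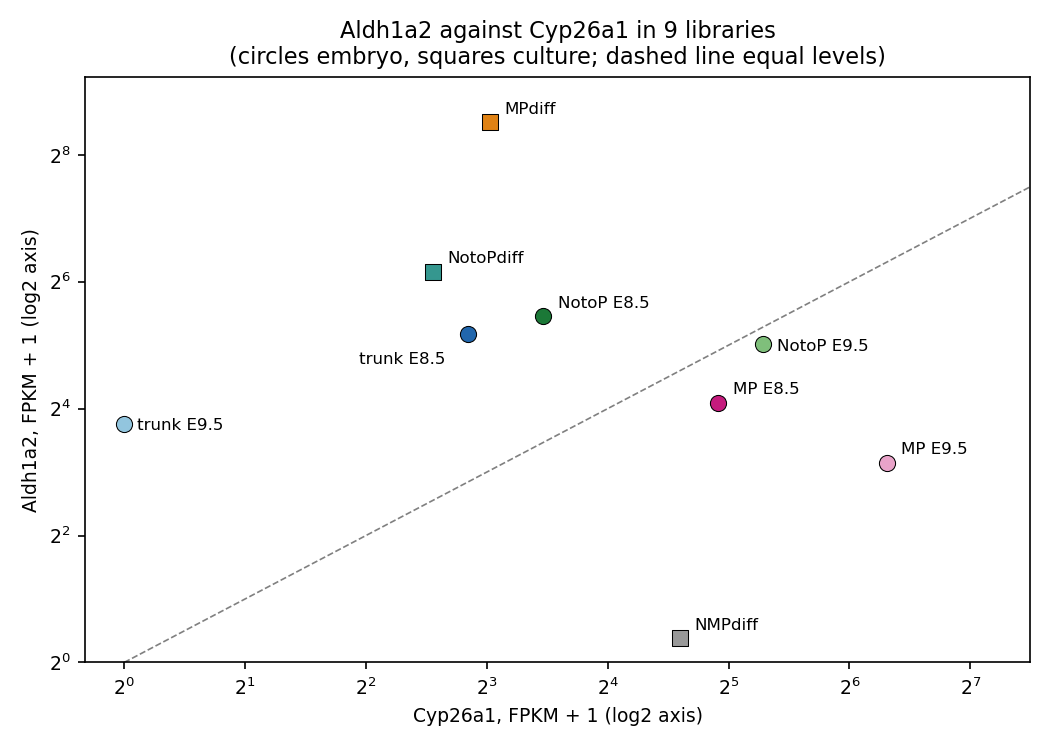
Aldh1a2 plotted against Cyp26a1 in FPKM + 1 on log2 axes, 1 point per library, with circles for embryonic and squares for cultured cells and a dashed line at equal levels. Both MP libraries, NotoP at E9.5 and NMPdiff lie below the line, and the other 5 libraries lie above it.

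Of the 10 genes, the binding protein Crabp1 had the largest log2 ratio in size between NotoP and MP at both stages and in culture. Crabp1 was 33.2 FPKM in NotoP at E8.5 and 12.0 at E9.5, against 188 and 116 in MP, and trunk notochord lay between them with 80.6 and 41.5. In culture it was 7.53 FPKM in NMPdiff, 11.9 in NotoPdiff and 154 in MPdiff. Crabp1 in NotoP over MP gave log2 ratios of -2.46 at E8.5, -3.17 at E9.5 and -3.59 in culture, so each of the 3 pairs passed 3-fold in the same direction. Crabp1 was the only one of the 10 genes that was at least 3-fold lower in NotoP at both stages, a call made for 0.238% of all genes, and none of the 10 was at least 3-fold higher at both stages, against 1.31% of all genes. Trunk notochord stood above NotoP by log2 ratios of 1.25 at E8.5 and 1.70 at E9.5. The E9.5 ratio passed 3-fold.

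Crabp2 was higher at E9.5 than at E8.5 in each tissue, and at E9.5 it also differed between tissues. At E8.5 it was 3.14 FPKM in NotoP and 8.65 in MP and was listed at 0 in trunk notochord. At E9.5 it was 10.7 FPKM in NotoP, 97.0 in MP and 79.2 in trunk notochord, each above its E8.5 value. The log2 ratio of E9.5 over E8.5 was 1.50 in NotoP and 3.34 in MP. At E9.5 NotoP was the lowest of the 3 tissues, with a ratio of -3.06 against MP and a trunk over NotoP ratio of 2.77. Cultured cells had 13.7 FPKM in NMPdiff, 5.41 in NotoPdiff and 6.42 in MPdiff, and no ratio among them reached 3-fold. The summed level of both binding proteins was 36.3 FPKM in NotoP at E8.5 and 22.8 at E9.5, against 196 and 213 in MP. In culture the sum was 17.3 FPKM in NotoPdiff and 21.2 in NMPdiff, against 161 in MPdiff.

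The receptors differed from each other in where they were high. Rarg was detected at 7.44 FPKM or more in all 9 libraries, with 12.1 in NotoP at E8.5, 21.4 in NotoP at E9.5, 18.1 in MP at E8.5, 31.2 in MP at E9.5, and 21.8 and 14.9 in E8.5 and E9.5 trunk notochord. In culture it was 11.0 FPKM in NMPdiff, 7.47 in NotoPdiff and 7.44 in MPdiff. None of its ratios reached 2-fold in any comparison, the largest being 0.80 on the log2 scale.

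Rara was high in 2 embryonic libraries, with 20.8 FPKM in NotoP at E8.5 and 30.2 in trunk notochord at E9.5. The other 4 embryonic libraries lay between 5.53 and 7.29 FPKM, and cultured cells had 6.77 in NMPdiff, 10.6 in NotoPdiff and 11.0 in MPdiff. The ratio of trunk notochord over NotoP was -1.49 at E8.5 and 1.91 at E9.5, opposite in sign at the 2 stages. E9.5 trunk notochord was 1 of the libraries with more dropout, and the part of this in the Rara value was not tested.

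Rarb was highest in trunk notochord, at both stages. It measured 14.5 FPKM there at E8.5 and 3.54 at E9.5, against 0.306 and 0.240 in NotoP, and 1.93 and 0.511 in MP. Cultured cells had 0.200 FPKM in NMPdiff, 0.833 in NotoPdiff and 0.477 in MPdiff. Trunk notochord exceeded NotoP by log2 ratios of 3.57 at E8.5 and 1.87 at E9.5. Of the 10 genes, only Rarb was at least 3-fold higher in trunk notochord at both stages, a call made for 0.88% of all genes, and none was at least 3-fold lower at both, against 0.992%. From E8.5 to E9.5 it fell by 1.77 on the log2 scale in trunk notochord. The 3′ end of Rarb overlaps Top2b on the opposite strand. Top2b measured between 50.7 and 95.4 FPKM in the 9 libraries, and E8.5 trunk notochord, the library highest in Rarb, had 70.3 FPKM of it. Reads were mapped with a stranded setting, and the part of Top2b reads in the Rarb value was not tested.

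**Figure D3:**
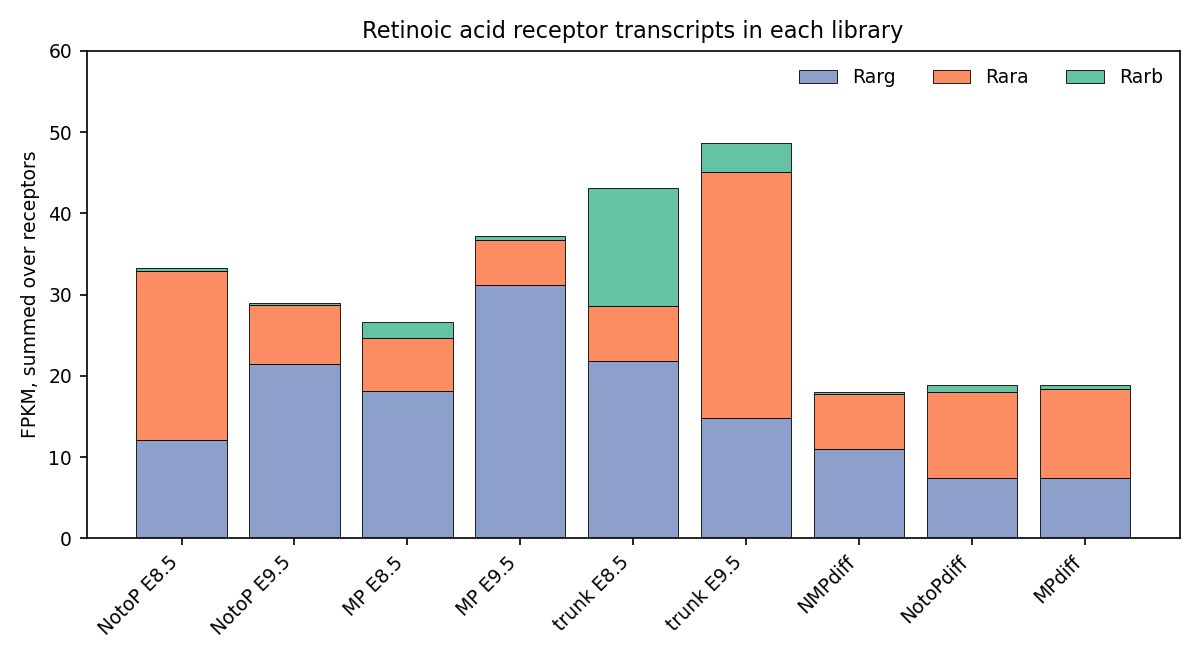
Stacked FPKM of Rarg, Rara and Rarb in each of the 9 libraries, 1 library per bar. The summed level was highest in trunk notochord (43.1 and 48.6 FPKM) and lowest in the 3 cultured libraries (18.0 to 18.9 FPKM).

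Summed over the 3 receptors, transcript levels were 33.2 FPKM in NotoP at E8.5, 28.9 at E9.5, 26.6 in MP at E8.5 and 37.2 at E9.5. Rarg made up 68.2% and 83.8% of the sum in MP at E8.5 and E9.5. In NotoP at E8.5, Rara made up 62.6%, and at E9.5 Rarg made up 74.0%. Rarb made up 33.6% in trunk notochord at E8.5 and at most 7.28% in every other library. The 2 genes with a DR5 match in their promoters were ordered in opposite ways: Rarb was higher in each trunk library than in any caudal or cultured library, and Cyp26a1 was lower in each trunk library than in the caudal libraries.

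Counted over all 10 genes, NotoP against MP had 1 call at E8.5, beside 12.8% of all genes, and 3 at E9.5, beside 3.74%. The E8.5 call was Crabp1, lower in NotoP, a direction called for 4.02% of genes. At E9.5, Aldh1a2 was higher in NotoP (2.63% of genes were), and Crabp1 and Crabp2 were lower (1.11%). The median log2 ratio of the 10 genes was -0.68 at E8.5 and -0.40 at E9.5, against 0 over all genes, many of which were listed at 0. Over genes with at least 1 FPKM in 1 or both libraries, the median was 0.15 at E8.5 and 0.05 at E9.5. This filter was not applied to the 10 genes. The E8.5 count changed with the MP library used. With E9.5 MP as the comparator of E8.5 NotoP, 5 genes were called, beside 6.38% of all genes. Aldh1a2 and Rara were up, and Cyp26a1, Crabp1 and Crabp2 were down. That comparator differs in stage as well as in library, and these cannot be told apart.

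Trunk notochord against NotoP had 2 calls at E8.5, beside 8.74% of all genes, and 5 at E9.5, beside 9.5%. At E8.5, Rarb was higher in trunk notochord (4.58% of genes were) and Crabp2 was lower (4.17%). At E9.5, Rara, Rarb, Crabp1 and Crabp2 were higher (4.33%) and Cyp26a1 was lower (5.17%). Crabp2 at E8.5 and Cyp26a1 at E9.5 were listed at 0 in trunk notochord, so their calls carry no fold, and without them the counts were 1 and 4.

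Between stages, NotoP had 1 call, Cyp26a1, beside 4.29% of all genes in either direction and 2.3% higher at E9.5. MP had 1 call, Crabp2, beside 9.25% in either direction and 6.02% higher at E9.5. Trunk notochord had 4 calls beside 10.1% of all genes. Rara and Crabp2 were higher at E9.5 (4.28% of genes were) and Rarb and Cyp26a1 lower (5.79%), with Crabp2 listed at 0 at E8.5 and Cyp26a1 at E9.5. In culture, NotoPdiff against MPdiff had 2 calls, Aldh1a2 and Crabp1, beside 1.99% of all genes. Both were lower in NotoPdiff, a direction called for 0.442% of genes. NotoPdiff against NMPdiff had 2 calls beside 2.11%, with Aldh1a2 higher (1.31% of genes were) and Cyp26a1 lower (0.796%). MPdiff against NMPdiff had 2 calls beside 2.38%, Aldh1a2 and Crabp1, both higher in MPdiff (0.901%). The comparisons within culture share libraries, as do those within each stage, so their values are not independent of each other.

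The fit of tissue plus stage over the 6 embryonic libraries was added after the ratios were known. It was made with limma on log2(FPKM + 1) for the 11721 genes that average at least 1 FPKM, which leaves out Cyp26b1 and Cyp26c1. It takes the tissue difference to be the same at both stages, with 2 residual degrees of freedom per gene. The residual is the departure from that rule, with the stages in place of replicates, so no spread between replicates was measured. The limma p-values also draw on the variance of other genes. Crabp1 was lower in NotoP than in MP by a log2 difference of -2.82 ± 0.34 (standard error, limma adjusted p = 0.00749), the only one of 8 genes called at an adjusted p under 0.05, beside 0.333% of all genes tested. At an unadjusted p under 0.05 there were 3, Aldh1a2, Crabp1 and Crabp2, beside 9.63%. The Aldh1a2 difference was 1.61 ± 0.46 (limma adjusted p = 0.285). Without the filter on low values, the limma adjusted p of Crabp1 and of every other gene of the 10 was at least 0.805, so the Crabp1 call depends on the filter.

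Between trunk notochord and NotoP, none of the 8 genes was called by limma at an adjusted p under 0.05, beside 0.23% of genes, and 3 were at an unadjusted p under 0.05, Crabp1, Cyp26a1 and Rarb, beside 9.21%. The Rarb difference was 2.72 ± 0.86 (limma adjusted p = 0.357), and the Crabp1 difference was 1.48 ± 0.34 (adjusted p = 0.174). Between stages, limma called 0 genes of any kind at an adjusted p under 0.05, and 3 of the 8, Aldh1a2, Crabp1 and Crabp2, were at an unadjusted p under 0.05, beside 6.07%. The fit cannot test a difference that changes between stages, such as that of Rara.

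**Figure D4:**
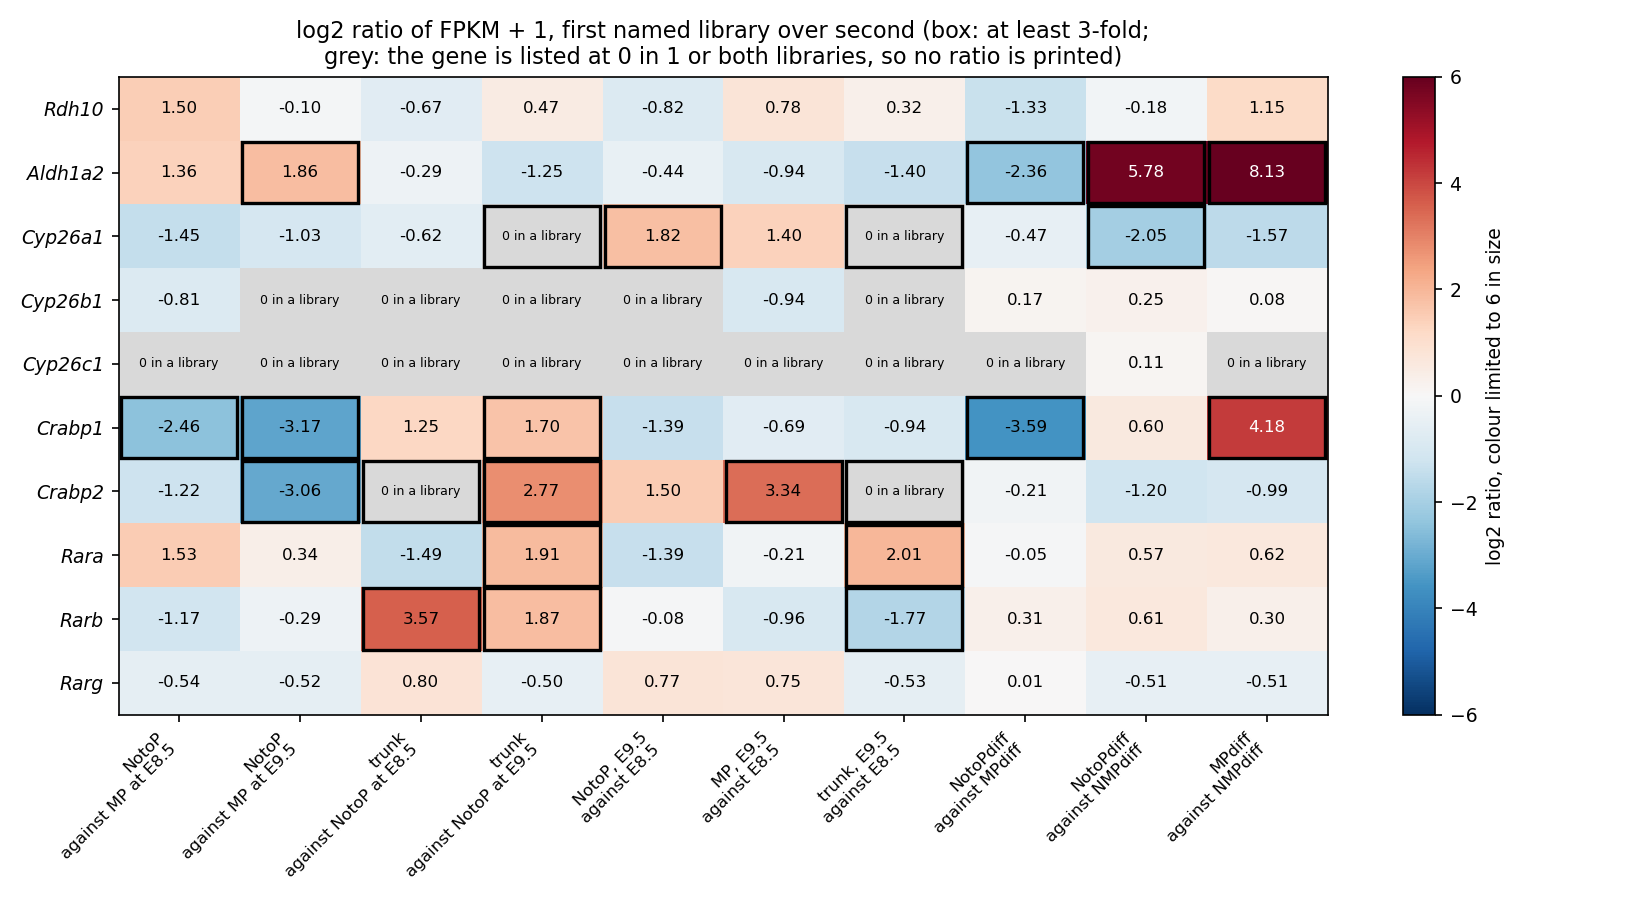
log2 ratios of FPKM + 1 of the 10 genes (rows) in the 10 comparisons (columns), first named library over second, with boxes around ratios of at least 3-fold and grey cells where a library listed the gene at 0. Crabp1 is below 0 in all 3 NotoP against MP columns (-2.46, -3.17 and -3.59), and Aldh1a2 changes sign between the embryonic (1.36 and 1.86) and the cultured (-2.36) column.

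Markers of other cell types were read beside these values. The list for intermediate and lateral mesoderm (Osr1, Pax2, Foxf1, Hand1, Hand2, Lhx1) summed to 94.6 FPKM in E8.5 MP, with 4 of 6 genes above 0, and to 81.3 in MPdiff, with 6 of 6. It summed to 4.81 FPKM in E9.5 MP, 5.09 in E8.5 NotoP, 0 in E9.5 NotoP, 7.68 and 24.2 in E8.5 and E9.5 trunk notochord, 4.72 in NotoPdiff and 37.5 in NMPdiff, where Lhx1 alone gave 37.0. Foxf1 and Hand1 were 36.6 and 26.4 FPKM in MPdiff and 0.0402 and 0.0513 in NotoPdiff. Between the day 4 cultures this list was higher in MPdiff, as were Aldh1a2 and Crabp1. The sum was lower in NotoPdiff than in NMPdiff mostly through Lhx1, at 4.23 and 37.0 FPKM, and Aldh1a2 was higher in NotoPdiff. In the embryo the list sum was highest in E8.5 MP. Crabp1 was 188 FPKM in E8.5 MP and 116 in E9.5 MP. Somite markers (7 genes) summed to 87.1 FPKM in E8.5 MP and 83.2 in E9.5 MP, 39.7 and 33.1 in NotoP, 62.4 and 40.0 in trunk notochord, 50.9 in MPdiff and 22.6 in NotoPdiff, with the lowest sum in NMPdiff. Of the 7 somite markers, Tcf15 and Pax3 were called higher in trunk notochord than in NotoP at E8.5 and 0 lower, beside 4.58% of all genes called higher. Tcf15 was 11.8 FPKM in E8.5 trunk notochord and listed at 0 at E9.5, and Pax3 was 9.90 and 1.41. The part of these cells in the Aldh1a2, Crabp1 and Rarb values was not tested. Pluripotency markers summed to 300 FPKM in NMPdiff, of which Pou5f1 gave 269, and to 16.1 in each of NotoPdiff and MPdiff. Mesoderm progenitor markers (6 genes) summed to 194 FPKM in NotoP and 178 in MP at E8.5, and to 130 and 353 at E9.5, so at E8.5 the sum was not higher in MP than in NotoP. Tbx6 was 44.0 FPKM in E8.5 NotoP and 39.3 in E8.5 MP, and Hes7 was 74.3 and 5.38. In both trunk libraries Tbx6, Msgn1 and Hes7 were listed at 0, and the list summed to 15.2 and 7.97 FPKM. In culture it summed to 89.9 FPKM in NMPdiff, 89.8 in NotoPdiff and 175 in MPdiff. Gut endoderm markers (5 genes in the table) summed to 108.9 FPKM in NotoPdiff, 15.9 in MPdiff and 15.6 in NMPdiff, with Sox17, Apela and Trh called higher in NotoPdiff than in MPdiff. In the embryo they summed to 96.9 and 72.8 FPKM in NotoP, 109.1 and 30.4 in trunk notochord and 23.8 and 4.08 in MP, with Apela giving most of the sum in each. The part of either list in the ratios of the 10 genes was not tested. Blood and endothelial markers summed to at most 4.33 FPKM, and the most abundant globin, Hbb-y, did not exceed 0.393.

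The remaining genes that handle retinol were described from the pathway lists. Of 6 genes for retinol uptake and carriers, 1 was called higher in NotoP than in MP at E8.5 and 2 were called lower, with none called at E9.5 or in NotoPdiff against MPdiff. Called in either direction in these 3 comparisons were 12.8%, 3.74% and 1.99% of all genes. Stra6, the membrane receptor for retinol uptake, was 33.4 and 14.0 FPKM in E8.5 and E9.5 NotoP, 7.50 and 12.4 in MP, and 8.22 and 3.44 in trunk notochord, so that trunk notochord was called lower than NotoP at both stages. In culture Stra6 was 1.48 FPKM in NMPdiff, 35.4 in NotoPdiff and 16.2 in MPdiff, the only gene of its list called between NMPdiff and either day 4 library. Rbp4, a retinol carrier, was 47.3 FPKM in trunk notochord at E8.5 and 2.03 in NotoP at E8.5.

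Of 9 further retinol and retinal enzymes, 1 was called between NotoP and MP at E8.5 (Dhrs3, which reduces retinal back to retinol and was listed at 0 in E8.5 MP), and none at E9.5 or between NotoPdiff and MPdiff. Dhrs3 was 22.8 FPKM in trunk notochord at E8.5 and between 0 and 2.79 in the other 8 libraries. Rarb, also a gene known to respond to retinoic acid, had its highest level in the same library. So did the somite markers Tcf15 and Pax3, and the part of somite cells in the Rarb and Dhrs3 values was not tested. Among the RXR partners, Rxra lay between 2.02 and 7.94 FPKM and Rxrb between 3.32 and 22.5, while Rxrg was listed at 0 in all 6 embryonic libraries and was 4.76 FPKM in NMPdiff. Of 8 receptor cofactors, 1 was called between NotoP and MP at E8.5, Ncoa1, higher in NotoP, and 1 between trunk notochord and NotoP at E8.5, Nrip1, which measured 28.2 and 22.0 FPKM in E8.5 and E9.5 trunk notochord and between 6.36 and 11.8 elsewhere. In these 2 comparisons, 12.8% and 8.74% of all genes were called in either direction.

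A list of 18 genes known to respond to retinoic acid had calls in both directions between embryonic tissues, and in 1 direction in each comparison within culture. Between NotoP and MP, 3 were higher in NotoP and 2 lower at E8.5 (median log2 ratio 0.04), and 2 higher and 2 lower at E9.5 (median 0.11). Called in either direction were 12.8% of all genes at E8.5 and 3.74% at E9.5. Zfp703 and Tgm2 were higher in NotoP at both stages, and Meis1 was lower. Tgm2 was listed at 0 in E9.5 MP. Trunk notochord exceeded NotoP for 5 genes at E8.5 with 3 lower (median 1.17), and for 7 at E9.5 with 3 lower (median 0.56). Of all genes, 4.58% were called higher in trunk notochord and 4.17% lower at E8.5, and 4.33% and 5.17% at E9.5. Meis1, Tshz1, Nr2f1 and Tgm2 were higher in trunk notochord at both stages, whereas Hoxb1 and Hoxd4 were lower. Tgm2 measured 88.0 and 68.3 FPKM in trunk notochord against 5.58 and 10.5 in NotoP. Tshz1 measured 21.9 and 38.4 FPKM against 6.00 and 3.43. MPdiff exceeded NMPdiff for 9 genes with none lower (median 1.79), and NotoPdiff exceeded NMPdiff for 6 with none lower (median 1.26). The shares of all genes called higher than in NMPdiff were 0.901% for MPdiff and 1.31% for NotoPdiff. NotoPdiff was lower than MPdiff for Hoxd4, Meis1 and Meis2 and higher for none (median -0.53), beside 0.442% of all genes called lower. The median over all genes was 0 in each of these comparisons, with between 31.6% and 58.1% of genes listed at 0 per library. Over genes with at least 1 FPKM in 1 or both libraries, it lay between -0.04 and 0.15.

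Of 5 genes lowered by retinoic acid in the caudal embryo, Fgf8 and Wnt3a were listed at 0 in both trunk libraries. Fgf8, the caudal fibroblast growth factor, was 52.6 FPKM in NotoP at E8.5 and 54.4 at E9.5, 20.5 in MP at E9.5, and listed at 0 in E8.5 MP. Wnt3a was 15.4 and 11.2 FPKM in NotoP and 11.3 and 18.9 in MP. In culture Fgf8 was 36.6 FPKM in NMPdiff, 17.0 in NotoPdiff and 17.6 in MPdiff, and Wnt3a was 11.8, 6.65 and 2.94. Nkx1-2 was 41.5 FPKM in NMPdiff, 19.2 in NotoPdiff and 7.13 in MPdiff. Wnt3a and Nkx1-2 were called lower in MPdiff than in NMPdiff, and none of the 5 was called between NotoPdiff and either of the other cultures. Between MPdiff and NMPdiff, 2.38% of all genes were called in either direction.

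Genes with the most similar pattern over the 9 libraries were taken by Pearson correlation of log2(FPKM + 1) among 8751 genes that reach 10 FPKM, for the 8 genes that reach 5 FPKM. With 9 points that share an instrument within each set, these are descriptions only. Aldh1a2 was most like Nnat (r = 0.92), Gpc6 (0.91) and Rhou (0.86). Crabp1 was most like Ptprg (0.93) and Foxc2 (0.91), Crabp2 like Mtmr4 (0.94), Sec14l1 (0.94) and Lrrc8a (0.90), and Rdh10 like Ctdnep1 (0.87), Kdm6b (0.86) and Adsl (0.86). Cyp26a1 was most like Ppia (0.95), Calm3 (0.95) and Eogt (0.95). Rara was most like Rnf111 (0.95), Mapk8ip3 (0.94) and Carkd (0.94), Rarb like Tm9sf2 (0.96), Ufl1 (0.96) and Ssr3 (0.95), and Rarg like Polr2d (0.93), Ece1 (0.91) and Ppp1r12a (0.89). Of the 24 most similar genes, 3 for each of the 8, 5 stayed among the 3 most alike by Spearman correlation and 7 without the E8.5 MP library, so the names depend strongly on the measure. Nnat and Gpc6 for Aldh1a2 and Rnf111 for Rara stayed under both.

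Binding was read from the peak lists, 6875 peaks for T and 22684 for Foxa2, as summits within 100 kb of the GENCODE gene start (coordinates in mm10). A T peak lay near 5 of the 10 genes, Aldh1a2, Rara, Rarb, Crabp1 and Crabp2, beside 44.7% of 19629 placed genes. A Foxa2 peak lay near 7, those 5 with Rarg and Rdh10, beside 74.3%. A shared peak, meaning overlap of at least 1 bp, lay near 1, Rarb, beside 9.15%. None of the 3 Cyp26 genes had a peak of either factor in this window, as for 17.4% of genes, and the counts within 100 kb were near the background shares. Cyp26a1 and Cyp26c1 are direct neighbours on chromosome 19. When peaks were instead given to the stretch between the neighbouring protein-coding genes, Cyp26a1 had peaks of both factors and Cyp26b1 had a Foxa2 peak. By that rule the counts were 6 for T, beside 29.2% of genes, and 8 for Foxa2, beside 47.8%, both above the share of all genes. These stretches ran from 13.7 kb at Cyp26c1 to 1348 kb at Rarb, and a longer stretch has more room for a peak. The shares were not matched for length, so the higher counts are not read as a trait of these genes. The 6 T peaks had a median fold enrichment of 6.11, against 7.45 over the list, and the 23 Foxa2 peaks 7.38, against 7.19. By GENCODE, 9 of the Foxa2 peaks lay in introns of the gene itself and 11 between genes, and of the T peaks 2 lay in introns and 4 between genes. Some peaks between genes in GENCODE, as at Rarb, lie within the span of a RefSeq gene.

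**Figure D5:**
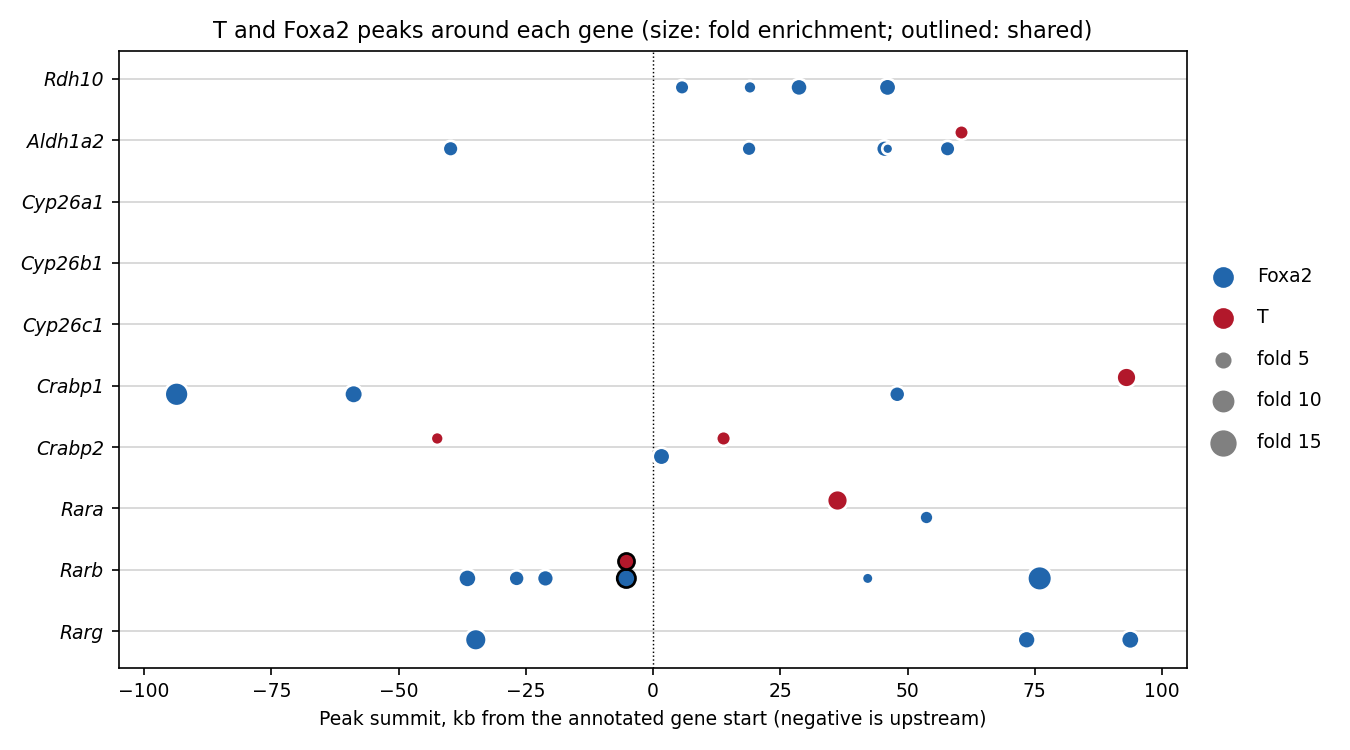
Position of T (red) and Foxa2 (blue) peak summits in kb from the annotated start of each gene, with negative values upstream, point size for fold enrichment and a black outline for shared peaks. Within 100 kb Rarb has the only shared pair, and the 3 Cyp26 rows are empty.

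In GENCODE the gene bodies described next lie at chr11:98927818-98974942 (Rara, plus strand), chr9:54764748-54773110 (Crabp1, plus strand), chr3:87948666-87953376 (Crabp2, plus strand), chr9:71215789-71296243 (Aldh1a2, plus strand) and chr14:16430839-16819156 (Rarb, minus strand). The strongest T peak, at Rara (chr11:98963630-98964193), had a fold enrichment of 11.2 and lay in an intron, 36161 bp into the gene from its GENCODE start but 893 bp upstream of the start of a shorter curated RefSeq transcript. Rara itself was 10.6 FPKM in NotoPdiff and 11.0 in MPdiff. At Crabp1, a Foxa2 peak 93607 bp upstream (chr9:54670825-54671318) reached 14.7-fold and a T peak 92952 bp downstream of the start (chr9:54857489-54857920) reached 10.2-fold. At Crabp2, a Foxa2 peak of 7.93-fold lay 1614 bp downstream of the start in an intron (chr3:87950060-87950478). Aldh1a2 had 4 Foxa2 peaks and 1 T peak in its introns, between 3.09-fold and 7.29-fold, and 1 Foxa2 peak of 6.44-fold 39770 bp upstream.

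At Rarb the count depends on which start is used. GENCODE places the gene start at 16819156 on chromosome 14 (minus strand), while curated RefSeq transcripts start at 16575476 and 17082331, so peaks near the RefSeq starts were listed as well, a choice made after seeing the data. The shared peak 5261 bp upstream of the GENCODE start (T chr14:16824216-16824531, 6.61-fold, and Foxa2 chr14:16824229-16824558, 8.54-fold) lies in an intron of the longest RefSeq transcript with its T summit 248941 bp from the nearer RefSeq start. A second shared pair, T chr14:16563503-16564112 (9.60-fold) and Foxa2 chr14:16563286-16564217 (11.7-fold), lies in an intron, with summits 11611 and 11517 bp downstream of the RefSeq start that carries the DR5 element. It is 255291 bp from the GENCODE start and so was not counted above. Foxa2 peaks also lay 1443 bp downstream (6.06-fold) and 7523 bp upstream (7.55-fold) of that start. Rarb was 0.833 FPKM in NotoPdiff, the cells enriched in the cultures where these peaks were mapped. With any curated RefSeq start in place of the GENCODE start, the same numbers of genes had a T peak (5, beside 45.3%), a Foxa2 peak (7, beside 74.7%) and a shared peak (1, beside 9.41%).

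Windows of 101 bp around the summits were searched on both strands for forkhead sites (the site TGTTTAC, the site TGTTTGC, the site TATTTAC or the site TATTTGC), for the T site TCACACCT and for its shorter core CACACC, which the 8-letter T site contains. A forkhead site was found in 4 of the 23 Foxa2 windows, beside 30.4% of all Foxa2 windows. The T site was found in none of the 6 T windows, beside 2.97%, and the core in 1, beside 14.3%. Forkhead sites were found in 0 of these 6 windows, beside 19.7% of all T windows. Repeats of CA (CACACACA on either strand) were found in 11 of the 23 Foxa2 windows, beside 34.3% of all Foxa2 windows and 2.63% of all T windows. The strongest Foxa2 peak, at Rarb (chr14:16742924-16743487, 15.7-fold), was among the 11. Shown on the plus strand of mm10 are the windows of the strongest Foxa2 peak with a forkhead site, the one nearest to a gene start, the intronic one at Rdh10 with a pair of sites, the shared intronic T peak of Rarb, and the strongest T peak, which holds none of the motifs. Capitals mark forkhead sites. The Rarb T peak shown was listed only by its RefSeq start, so it is not among the 6 T windows counted. The window of the Foxa2 peak that overlaps it (chr14:16563286-16564217) held 0 forkhead sites.

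Crabp1 Foxa2 peak, chr9:54671091-54671191: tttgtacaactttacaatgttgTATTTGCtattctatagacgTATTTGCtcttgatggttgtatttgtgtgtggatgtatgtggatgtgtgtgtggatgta

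Crabp2 Foxa2 peak, chr3:87950230-87950330: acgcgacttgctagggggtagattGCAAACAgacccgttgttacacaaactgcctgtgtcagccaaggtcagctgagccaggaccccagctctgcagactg

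Rdh10 Foxa2 peak, chr1:16124770-16124870: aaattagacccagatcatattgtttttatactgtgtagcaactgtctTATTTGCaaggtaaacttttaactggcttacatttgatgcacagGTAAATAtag

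Rarb shared T peak, chr14:16563815-16563915: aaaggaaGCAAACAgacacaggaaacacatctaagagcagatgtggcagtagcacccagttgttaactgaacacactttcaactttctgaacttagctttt

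Rara T peak, chr11:98963929-98964029: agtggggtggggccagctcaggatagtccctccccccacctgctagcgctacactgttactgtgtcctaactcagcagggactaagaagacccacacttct

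The Crabp1 window holds TATTTGC at 2 places and the Rdh10 window holds TATTTGC and, on the other strand, TATTTAC. The Crabp2 and Rarb windows hold TGTTTGC on the minus strand. Absence of a match says only that these letters are not in the window. No peak window of the 10 genes held a DR5 element, beside 0.0176% of all Foxa2 windows and 0.0437% of all T windows.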

How the data were processed

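Of the 21 samples of the series, 9 RNA-seq and 2 ChIP-seq libraries were used. Histone and ATAC-seq samples were not analysed here. The authors trimmed RNA-seq reads, mapped them to mm10 with TopHat2 2.1.1 and Bowtie 1.2.2 with a stranded library setting and RefSeq gene models, removed duplicates by molecular identifiers and deposited FPKM from Cufflinks 2.2.1. For ChIP-seq, the authors mapped read pairs with Bowtie 1.3.1, removed duplicates and called peaks with MACS3 3.0.0b1 at a q-value cutoff of 0.1 on each library. The deposited peak lists give a fold enrichment (a ratio), −log10 p and −log10 q and a score, of which the ratio, −log10 q and summit position were used. The FPKM table holds no counts per gene, so no counting interval was given.

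Ratios are log2 of FPKM + 1, and 3-fold counted as called. Embryonic and cultured libraries were sequenced on different instruments, so ratios were taken within each set. The tables were read with Python 3.11.15 and pandas 2.3.3, sequences with pysam 0.24.0 and figures drawn with matplotlib 3.10.9. Positions come from GENCODE vM21 and RefSeq GRCm38.p6, and all peak ends lay within the chromosome lengths. Of 23983 genes, 19629 were placed by symbol. Calls and window counts were tested on simulated data. Named were all 10 genes, the 3 genes most like each (one of which is not reported here), and genes from the pathway and marker lists as each list needed. Genes, lists and rules were chosen with earlier results of these data known. A tissue plus stage fit of the 6 embryonic libraries was made with limma 3.58.1 in R 4.3.3 (eBayes with trend), Benjamini-Hochberg adjusted. Other pseudocounts, folds, filters, scalings and windows were tried.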

Additional observations from a re-analysis of the deposited data

Results flagged for a closer look

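Opposite directions in 2 settings of at least 2-fold each, with no library at 0, were found for 3 of the 10 genes, beside 3.85% of all genes in any of the same pairs of settings. Only genes above 0 in every library of at least 1 pair could meet this rule. They were 9 of the 10 genes and 12291 genes of the whole table, of which 7.52% met it. None of these differences was tested, since each setting had 1 library a side. Aldh1a2 was higher in NotoP than in MP in the embryo and lower in NotoPdiff than in MPdiff, so that the culture ratio lay -3.72 from the E8.5 ratio and -4.22 from the E9.5 ratio on the log2 scale. Rdh10 did the same between E8.5 and culture, with a difference of -2.83 between log2 ratios of 1.50 and -1.33, while at E9.5 its ratio was -0.10. Rara was lower in trunk notochord than in NotoP at E8.5 and higher at E9.5, a difference of 3.40 between ratios of -1.49 and 1.91. The same 4 values give the stage difference, E9.5 over E8.5, of -1.39 in NotoP and 2.01 in trunk notochord, also 3.40 apart.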

How the results depend on the processing

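Within a comparison of 2 libraries, no paired analysis was possible because every group has 1 library and no replicate number to pair on. The stages were used as pairs only in the tissue plus stage fit. Of 71 counts recomputed under an alternative, 55 stayed within 1.5 times the reported count, and of 173 single ratios 159 kept their side of 3-fold and 14 passed it under an alternative only. Among them 1 changed sign, Cyp26b1 in NotoP against MP at E8.5, which was not called and went from -0.81 to 0.13 with E9.5 MP as the comparator. Rescaling by the median of ratios moved no call. The NotoP against MP count at E8.5 went from 1 to 5 with a pseudocount of 0.1, 7 at a fold of 2 and 5 with E9.5 MP as the comparator. With a pseudocount of 0.1, trunk notochord against NotoP at E8.5 had 4 calls, NotoP between stages 3 and MP between stages 4. At a fold of 2, these had 4, 4 and 2, and MPdiff against NMPdiff had 4. Counting only genes above 0 in both libraries, an alternative added after seeing the data, trunk notochord against NotoP at E8.5 had 1 call and trunk notochord between stages 2. Within 50 kb, 3 genes had a T peak (Rara, Rarb, Crabp2), beside 26.7% of genes. Without the filter on low values, the tissue plus stage fit called 0 of the 10 genes between NotoP and MP in place of 1. Of the 24 most similar genes, 5 stayed by Spearman correlation and 7 without E8.5 MP. The cause of these changes was not tested. The low levels of Cyp26b1, Cyp26c1 and, outside trunk notochord, Rarb limit what ratios of these genes can show.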
